A study of Mus musculus with 1047 samples.

Results

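Among the brain cells of aged WT mice profiled by 10x droplet sequencing, 1644 cells were microglia with high Apoe and little or no Spp1 or Lpl. They were chosen by their own measured levels: at least 1000 genes detected, P2ry12, Cx3cr1 and Trem2 together at 30 or more UMIs (counted molecules) per 10000, Apoe at 100 or more per 10000, Lpl and Spp1 together under 5 per 10000, and fewer than 3 of the interferon genes Ifit2, Ifit3, Mx1, Ifi204 and Ifi211 detected. They made up 15.2% (exact binomial 95% interval 14.5 to 15.8%) of the 10849 cells that passed the same minima for genes and microglial UMIs, out of 21197 barcodes in the table. The cells set against them in the same table were 6469 Apoe-low microglia, with Apoe under 20 per 10000 and the same limits on Lpl, Spp1 and the interferon genes, and 730 Spp1/Lpl microglia, with Lpl and Spp1 together at 5 or more per 10000. Because these values chose the cells, levels in the 10x table are a description and carry no test. The same rule was then applied to animals profiled one cell at a time by Smart-seq2, a full-length plate method, where differences over animals could be tested.

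Microglia are the resident macrophages of the brain, and in white matter they clear myelin debris, which is rich in cholesterol. Apoe encodes apolipoprotein E, a carrier that loads cholesterol for export from the cell. In mice, microglia that meet amyloid plaques or damaged myelin are known to lose homeostatic genes such as P2ry12 and Tmem119 and to gain Apoe, Lyz2 and Cst7, a programme named disease-associated microglia (DAM). An early stage of it (DAM stage 1) is described as independent of the lipid-sensing receptor Trem2, and a later stage with Axl, Lpl and Spp1 (DAM stage 2) as dependent on it.

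The 10x libraries came from C57BL/6J males of 24 months, in pools of 3 or 4 mice, with 2 libraries titled WT white matter and 3 titled WT grey matter. One white matter library, of batch 3, is titled WT although its genotype entry reads ApoeKO, and it was taken as WT. The Smart-seq2 groups were cells positive for CD45 and CD11b from Trem2ko white and grey matter (18 to 28 months), from C57BL/6J WT white and grey matter (18 to 19 months), from 5xFAD prefrontal cortex (5 to 7 months) and from WT prefrontal cortex (6 to 7 months). White matter was the optic tract, medial lemniscus and corpus callosum, and grey matter was frontal cortex. 5xFAD mice carry mutant human amyloid precursor protein and presenilin transgenes driven by a neuronal Thy1 promoter. The enzyme mix held 45 uM actinomycin D, which blocks transcription during dissociation, so every aged group shared it. WT animals were male except A1, and Trem2ko animals were A9, A10, A11 and A13, females, and A8 and A12, males.

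Barcodes of the 10x table carried 5 endings, called A to E here, which the labels tied to no library, tissue or pool. The table is therefore 1 sample, and intervals given for it cover counting error only. The Apoe-high cells lay almost wholly in 2 endings. They were 850 of 2115 microglia in ending D (40.2%, interval 38.1 to 42.3%) and 706 of 2288 in ending B (30.9%, 29 to 32.8%). They were 48 of 2797 in ending E (1.72%, 1.27 to 2.27%), 30 of 2526 in ending C (1.19%, 0.803 to 1.69%) and 10 of 1123 in ending A (0.89%, 0.428 to 1.63%). Endings B and D thus held 1556 of the 1644 cells (94.6%), and in those endings 35.3% (33.9 to 36.8%) of 4403 microglia were Apoe-high. The Spp1/Lpl microglia followed the same endings, with 382 in B and 335 in D of 730. The median cell held 9336 UMIs and 2854 genes, against 7332 UMIs in Apoe-low and 10640 UMIs in Spp1/Lpl microglia. Of 21156 barcode sequences, 41 occurred in 2 endings, and 6 of these belonged to Apoe-high cells.

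**Figure D1:**
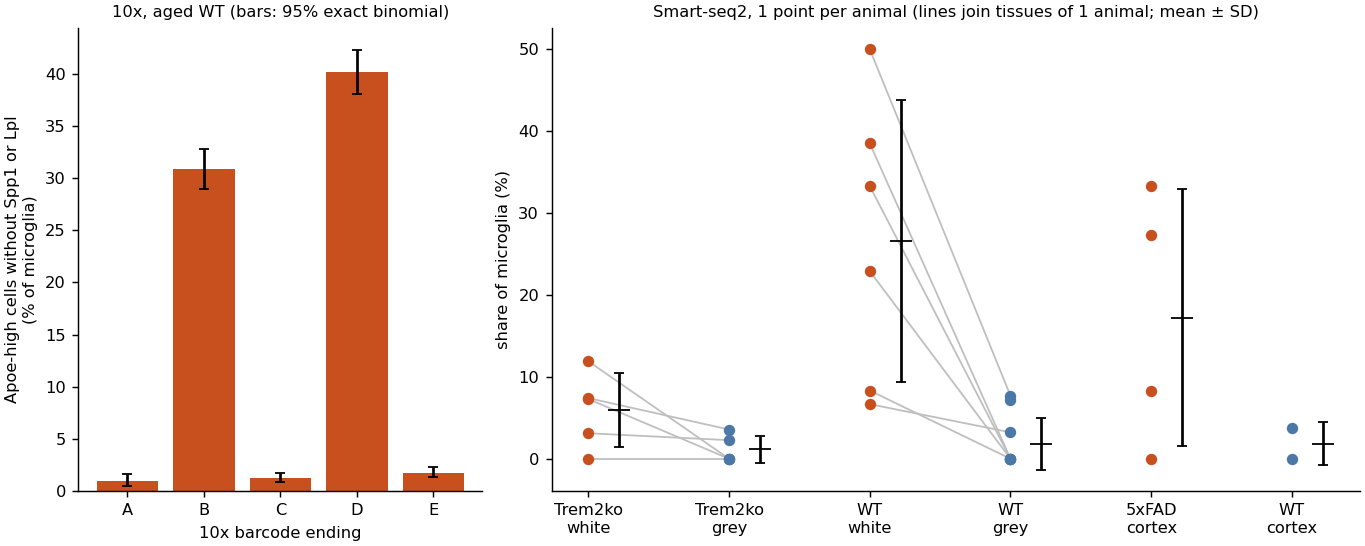
Left, share of Apoe-high cells without Spp1 or Lpl among microglia (%, bars) for each 10x barcode ending, with exact binomial 95% intervals. Endings B and D reached 30.9% and 40.2%, and the other endings stayed at 1.72% or below. Right, the same share in Smart-seq2 animals with at least 5 microglia, 1 point per animal, lines joining tissues of 1 animal, with mean ± SD beside. WT white matter averaged 26.6% and WT grey matter 1.82%, where the point of A1, which has no white matter cells, is drawn but is not in the mean.

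Markers of other cells split the endings too. In ending D the 8 markers of border-associated macrophages (Mrc1, Pf4, Cd163, F13a1, Lyve1, Ms4a7, Cbr2 and Stab1) summed to 0.937 UMIs per 10000 in Apoe-high cells and 1.25 in Apoe-low cells, and in ending B to 1.05 and 1.49. In endings A, C and E they summed to 32.6, 11.8 and 23.9 in Apoe-high cells, against 2.38, 2.15 and 2.38 in Apoe-low cells. The 8 astrocyte markers summed to 4.63 in Apoe-high and 4.37 in Apoe-low cells of ending D and to 3.61 and 3.02 in ending B. They summed to 83.3, 47.2 and 148.9 in Apoe-high cells of A, C and E, against 6.16, 7.18 and 8.88 in Apoe-low cells. At least 2 macrophage markers, or 10 or more UMIs per 10000 of the 7 astrocyte markers other than Slc1a3, were present in 10 of 10 Apoe-high cells of ending A (100.0%), 18 of 30 of C (60%) and 45 of 48 of E (93.8%), against 58 of 706 of B (8.22%) and 48 of 850 of D (5.65%). So the microglial label is uncertain for most of the 88 cells in A, C and E, of which 15 carried neither mark. Their 12 microglia markers still summed to 163.1 (A), 195.3 (C) and 155.4 (E) UMIs per 10000, and the source of the other marks was not tested. The astrocyte limit was chosen after seeing the data. A wider mark, 3 or more detected markers of 1 other cell type, was met by 157 of 706 Apoe-high cells of B (22.2%) and 275 of 850 of D (32.4%). In Apoe-low cells it was met by 19% in B and 24.2% in D. In A, C and E it was met by 60%, 56.7% and 70.8% of Apoe-high cells. Cells with such marks were kept in B and D. The gene levels below are given inside endings B and D. In Apoe-high cells of B and D the 12 microglia markers summed to 215.8 and 209.0, against 308.8 and 292.7 in Apoe-low cells. The 4 ependymal and choroid plexus markers, led in such tissue by Ttr, summed to 4.31 (B) and 7.02 (D) in Apoe-high and 4.17 and 3.71 in Apoe-low cells, and the part of free or attached RNA in these levels was not tested.

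**Figure D2:**
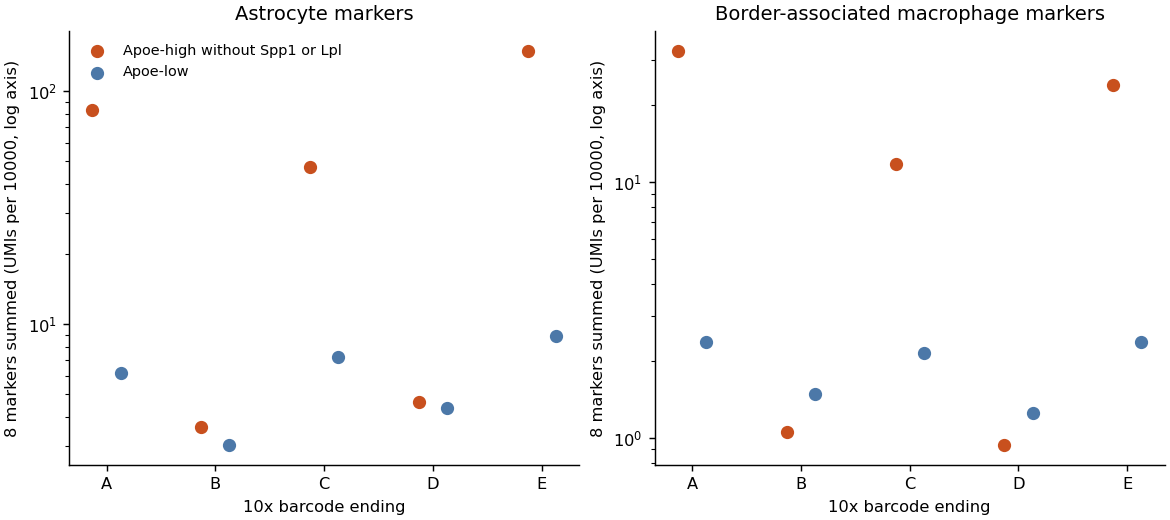
Summed UMIs per 10000 (log axis) of 8 astrocyte markers (left) and 8 border-associated macrophage markers (right) in Apoe-high cells without Spp1 or Lpl and in Apoe-low microglia, by 10x barcode ending. In endings A, C and E the Apoe-high points lie far above the Apoe-low points (83.3 against 6.16 for astrocyte markers in A), while in B and D the 2 classes lie close together.

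The gate left a wide range of Apoe. The median cell held 261.3 Apoe UMIs per 10000, the 10th to 90th percentile ran from 121.4 to 700.3, and the highest cell reached 2132. Just inside the threshold, 148 cells lay at 100 to 120 per 10000, and just outside it 190 cells lay at 80 to 100. Lpl and Spp1 were both at 0 in 642 cells (39.1%), and 1 or 2 of the interferon genes were detected in 1010 (61.4%). Apoe lies on chromosome 7 at 19696109 to 19699188, minus strand, a protein-coding gene of GRCm38, the assembly that the submitters' notes call mm10 and that all positions here refer to.

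The other 4 genes that mark these cells were each more than 2-fold higher in Apoe-high than in Apoe-low cells inside both endings. Rxrg (chromosome 1, 167598384 to 167639623, plus strand) encodes a retinoid X receptor, a nuclear receptor that pairs with the cholesterol-sensing LXR proteins. It had 0.542 UMIs per 10000 (exact Poisson 95% interval 0.49 to 0.597) in Apoe-high cells of ending B and 0.626 (0.573 to 0.682) in those of D, against 0.126 (0.0969 to 0.161) and 0.152 (0.104 to 0.215) in Apoe-low cells, which is 4.30-fold and 4.12-fold. Axl (chromosome 7, 25757273 to 25788705, minus strand), a receptor tyrosine kinase that binds apoptotic cells through the bridging protein Gas6, had 1.60 (1.51 to 1.69) and 1.81 (1.72 to 1.91) in Apoe-high cells, against 0.282 (0.237 to 0.333) and 0.513 (0.421 to 0.62) in Apoe-low cells of B and D. That is 5.68-fold in B and 3.53-fold in D.

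St8sia6 (chromosome 2, 13651021 to 13794064, minus strand) encodes a sialyltransferase, which adds sialic acid to glycans that inhibitory Siglec receptors read. Its level was 0.809 (0.746 to 0.876) and 0.923 (0.859 to 0.991) in Apoe-high cells, against 0.284 (0.239 to 0.335) and 0.366 (0.289 to 0.458) in Apoe-low cells of B and D, or 2.85-fold and 2.52-fold. Cd72 (chromosome 4, 43446462 to 43454628, minus strand), an inhibitory receptor best known from B cells, had 0.812 (0.749 to 0.879) and 0.750 (0.692 to 0.811) in Apoe-high cells, against 0.166 (0.132 to 0.206) and 0.285 (0.218 to 0.367) in Apoe-low cells, or 4.89-fold and 2.63-fold. None of the 4 intervals of an Apoe-high level met that of the Apoe-low level in either ending. Smaller differences separate as well at this depth, as for B2m in D (36.7 to 37.6 against 26.6 to 28). How many of all genes separate in this way was not counted.

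Set beside Spp1/Lpl cells, none of the same 4 genes differed by 2-fold in both endings. Rxrg was at 0.542 (B) and 0.626 (D) in Apoe-high cells and 0.343 (0.293 to 0.4) and 0.533 (0.46 to 0.613) in Spp1/Lpl cells. Axl was lower, at 1.60 and 1.81 in Apoe-high cells, against 2.31 (2.17 to 2.45) and 2.41 (2.25 to 2.58). Cd72 was also lower, at 0.812 and 0.750, against 1.37 (1.26 to 1.48) and 1.58 (1.45 to 1.71). St8sia6 was at 0.809 and 0.923 in Apoe-high cells, against 0.891 (0.808 to 0.979) and 1.07 (0.97 to 1.18) in Spp1/Lpl cells, and the intervals overlap.

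Cells were thinned to 4000 UMIs each, so that depth would not set the share of cells with a UMI. This left out 56 Apoe-high, 459 Apoe-low, 38 Spp1/Lpl and 162 endothelial cells, the last serving as a cell type of another lineage with a median of 8010 UMIs. Over all endings, Axl was then detected in 43.5% of Apoe-high, 2.96% of Apoe-low, 52.7% of Spp1/Lpl and 8.15% of endothelial cells (68.2%, 4.92%, 74.9% and 18.6% unthinned). Rxrg was detected in 19.1%, 3.36%, 14.7% and 0.103% of those cells in the same order (35.2%, 6.11%, 30.8% and 0.177% unthinned). Cd72 was found in 22.3% of Apoe-high, 3.14% of Apoe-low, 33.5% of Spp1/Lpl and 0.413% of endothelial cells (41.5%, 5.75%, 57.8% and 0.973% unthinned). St8sia6 was found in 27% of Apoe-high, 6.27% of Apoe-low, 29.2% of Spp1/Lpl and 21.8% of endothelial cells (47.7%, 9.79%, 53.4% and 41.1% unthinned), so unlike the other 3 it was also counted in many endothelial cells. All these shares mix class with ending, since Apoe-low cells come mostly from A, C and E. Apoe-high and Spp1/Lpl cells come mostly from B and D, and thinned shares inside those endings are not given here.

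Inside endings B and D, 37 of 5785 genes (0.64%) were 2-fold or more higher in Apoe-high than in Apoe-low cells in both, and 31 (0.536%) were 2-fold or more lower in both. The median gene was lower, by a log2 difference of -0.31 in B and -0.25 in D, so values near these are the background. Summed over all endings the same contrast had 69 of 6145 genes higher (1.12%) and 104 lower (1.69%), with 24 and 21 genes shared between the settings. The pooled sums mix class with ending, since Apoe-low cells come mostly from A, C and E. Axl was 17.7-fold higher in the pooled sums, and the MHC class II list had a median log2 difference of 2.23 pooled but 0.26 in B and 0.16 in D.

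**Figure D3:**
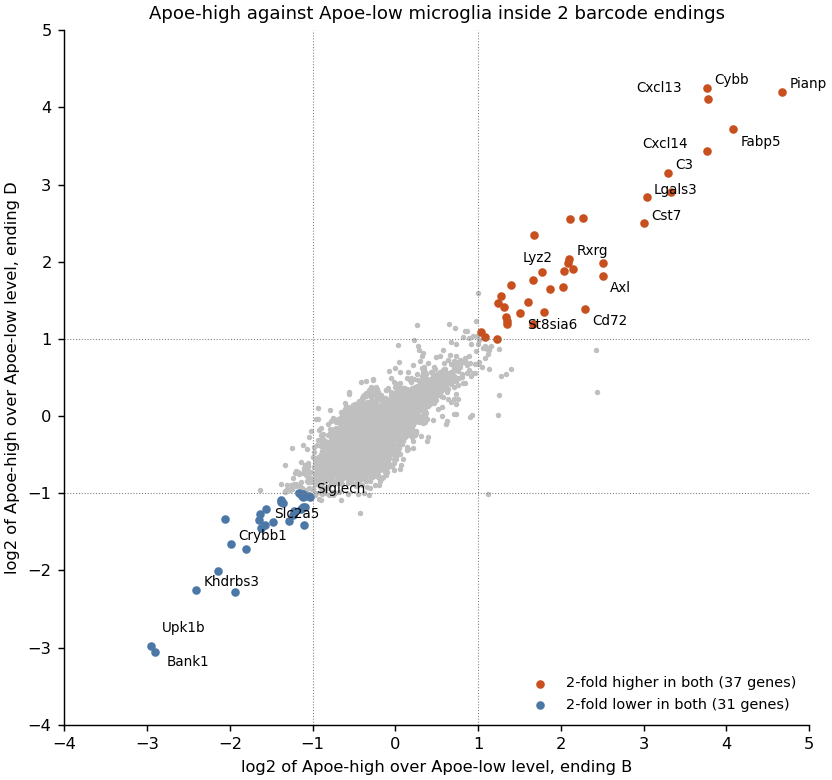
Each point is a gene, with the log2 ratio of its level in Apoe-high cells without Spp1 or Lpl over its level in Apoe-low microglia in barcode ending B (x axis) and ending D (y axis). The 37 genes 2-fold higher in both and the 31 genes 2-fold lower in both are coloured, and dotted lines mark 2-fold.

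Among the 37 higher genes were Cybb, Fabp5 and Lgals3, while none of 23 genes of the lysosome list was past 2-fold in both endings. Cybb (chromosome X, 9435252 to 9487771, minus strand), the catalytic subunit of the phagocyte NADPH oxidase, had 1.25 (1.18 to 1.34) and 1.27 (1.2 to 1.35) UMIs per 10000 in Apoe-high cells, against 0.092 (0.0674 to 0.123) and 0.0666 (0.0364 to 0.112) in Apoe-low cells of B and D, or 13.6-fold and 19.1-fold. Fabp5 (chromosome 3, 10012548 to 10016607, plus strand), a fatty acid binding protein, was at 1.79 and 1.63 in Apoe-high and 0.106 and 0.124 in Apoe-low cells. Lgals3 (chromosome 14, 47367751 to 47386160, plus strand), galectin-3, which marks damaged lysosomes, was at 1.28 and 1.05 in Apoe-high and 0.156 and 0.147 in Apoe-low cells. All 3 differed by more than 7-fold in both endings, although the Apoe-low levels rest on 14 to 78 UMIs.

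Lyz2 (chromosome 10, 117277331 to 117282321, minus strand), lysozyme, was the most deeply counted of the group. It had 31.1 (30.7 to 31.5) and 22.0 (21.7 to 22.3) UMIs per 10000 in Apoe-high cells, against 7.02 (6.79 to 7.25) and 5.90 (5.58 to 6.24) in Apoe-low cells of B and D, which is 4.43-fold and 3.73-fold. Cst7 (chromosome 2, 150570415 to 150578944, plus strand), an inhibitor of lysosomal cathepsins, had 3.13 and 2.17 in Apoe-high and 0.390 and 0.385 in Apoe-low cells, or 8.02-fold and 5.65-fold. C3, the central complement protein, was 9.83-fold and 8.91-fold higher, and Itgax, the integrin alpha chain of complement receptor 4, 4.81-fold and 5.91-fold. Pianp had 0.408 and 0.437 in Apoe-high cells, against 0.016 and 0.0238 in Apoe-low cells, which held 8 and 5 UMIs of it.

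Cytoskeletal and membrane-repair genes were also in the group of 37. Vim, the intermediate filament vimentin (chromosome 2, 13573927 to 13582826, plus strand), was 3.47-fold and 2.54-fold higher in Apoe-high cells of B and D. Capg, which caps actin filaments, was 2.36-fold and 2.77-fold higher, and the membrane-binding annexins Anxa2 and Anxa5 were 5.68-fold and 3.96-fold, and 2.49-fold and 2.65-fold. Crip1, a small LIM protein (chromosome 12, 113146316 to 113153879, plus strand), was 4.25-fold and 3.96-fold higher, and Fxyd5, which regulates the sodium pump (chromosome 7, 31032722 to 31042481, plus strand), 3.17-fold and 3.39-fold. Nceh1, which hydrolyses cholesterol esters, was 2.56-fold and 2.29-fold higher.

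The levels of the chemokines Cxcl13 and Ccl4 came from few cells. Cxcl13, a B-cell attractant, had 1.29 and 2.05 UMIs per 10000 in Apoe-high cells of B and D, against 0.094 and 0.119 in Apoe-low cells, yet it was detected in 60 of 706 cells (8.5%) and 128 of 850 cells (15.1%). The 10% of cells with the most Cxcl13 held 100.0% and 97.5% of its UMIs, and single cells held up to 246 and 379. Ccl4 was detected in 15% and 12.2% of cells, and its top 10% of cells held 97.3% and 98.3% of the UMIs. Cxcl14 was detected in more cells, 29.6% and 24%, and its top 10% held 61.9% and 64.8% of the UMIs. Axl was detected in 69.3% and 69.5% of cells, and its top 10% held 34.5% and 35% of the UMIs. Rxrg was detected in 35.3% and 37.9%, with 49.4% and 48.1% of the UMIs in the top 10% of cells.

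Genes known from homeostatic microglia were among the 31 lower genes. Upk1b (chromosome 16, 38773184 to 38800328, minus strand), a tetraspanin, had 0.134 (0.109 to 0.163) and 0.119 (0.0965 to 0.145) UMIs per 10000 in Apoe-high cells, against 1.03 (0.947 to 1.13) and 0.941 (0.815 to 1.08) in Apoe-low cells of B and D, or 7.73-fold and 7.92-fold lower. Crybb1 (chromosome 5, 112255815 to 112269585, plus strand), a beta-crystallin that microglia express, had 0.730 (0.67 to 0.794) and 0.983 (0.916 to 1.05) in Apoe-high cells, against 2.89 (2.75 to 3.05) and 3.09 (2.86 to 3.34), or 3.96-fold and 3.15-fold lower. Slc2a5 (chromosome 4, 150119283 to 150144169, plus strand), a fructose transporter, was at 0.928 and 1.05 in Apoe-high and 2.89 and 2.53 in Apoe-low cells. Siglech, a sialic acid receptor of microglia, was 2.07-fold and 2.05-fold lower.

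Bank1, a B-cell scaffold protein (chromosome 3, 136053363 to 136326066, minus strand), was 7.45-fold and 8.31-fold lower in Apoe-high cells. Khdrbs3, an RNA-binding splicing regulator (chromosome 15, 68928420 to 69101211, plus strand), was 5.31-fold and 4.77-fold lower, and Prkca, protein kinase C alpha (chromosome 11, 107933387 to 108343928, minus strand), 4.40-fold and 4.04-fold. Il7r, the interleukin-7 receptor alpha chain, was 3.82-fold and 4.84-fold lower. Slc40a1, the iron exporter ferroportin (chromosome 1, 45908068 to 45926523, minus strand), was 2.35-fold and 2.44-fold lower. Cd164, a sialomucin (chromosome 10, 41519414 to 41531048, plus strand), was 3.14-fold and 2.53-fold lower, Lrba (chromosome 3, 86224680 to 86782692, plus strand) 3.08-fold and 2.73-fold, Cbfa2t3, a transcriptional corepressor (chromosome 8, 122625141 to 122699109, minus strand), 2.96-fold and 2.31-fold, and Snn (chromosome 16, 11060945 to 11074985, plus strand) 2.43-fold and 2.58-fold.

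The gene lists moved to different degrees against the background of 0.64% higher and 0.536% lower genes. By direction alone, 4399 of the 5785 genes were lower in both endings and 762 were higher in both. Of 23 homeostatic microglia genes that could be compared, 4 were 2-fold lower (Siglech, Slc2a5, Crybb1 and Upk1b), none was 2-fold higher, and all 23 were below Apoe-low cells in both endings, with a median log2 difference of -0.83 in B and -0.62 in D. Examples short of 2-fold were Csf1r, the receptor microglia need to survive (log2 difference -0.51 and -0.48), and Fcrls (-0.94 and -0.83, chromosome 3, 87250758 to 87263738, minus strand). None of 12 identity transcription factors differed by 2-fold in both endings, and their median was -0.36 in B and -0.32 in D. Sall1, which maintains microglial identity, had -1.04 and -0.84, Maf -1.31 and -0.95, and Spi1, encoding PU.1, -0.45 and -0.30.

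All 13 DAM stage 2 genes compared were higher in both endings, 5 of them by 2-fold (Axl, Cst7, Itgax, Lgals3 and Fabp5), with a median of 1.02 in B and 0.88 in D. The gate genes Trem2, Lpl and Spp1 were left out of that count. Itgax, Lgals3 and Fabp5 lay under the minimum of 0.2 per 10000 in Apoe-low cells of both endings and entered through Apoe-high cells, which fixed their direction. Csf1, the ligand of Csf1r, had log2 differences of 1.12 and 0.88, the tetraspanin Cd63 1.02 and 0.99 and Cd9 0.25 and 0.36. All 9 DAM stage 1 genes other than Apoe were higher, with 1 past 2-fold (Lyz2) and medians of 0.64 and 0.55. Tyrobp, the signalling adaptor of Trem2, had 0.49 and 0.39, and Ctss, cathepsin S, 0.37 and 0.25.

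Nuclear receptors and sterol genes did not move as a group. Of 4 RXR and LXR genes compared, Rxrg alone was past 2-fold, and the medians were -0.15 and -0.10. Rxrb had log2 differences of -0.27 and -0.26, and Nr1h2, encoding LXR beta, -0.24 and -0.34. Of 14 sterol and lipid genes, Fabp5 and Nceh1 were 2-fold higher, with medians of 0.12 and 0.40. The cholesterol exporter Abca1 had 1.76 and 2.50 UMIs per 10000 in Apoe-high cells, against 1.94 and 2.69 in Apoe-low cells, and Abcg1 had log2 differences of -0.59 and -0.07. Npc2, which moves cholesterol out of lysosomes, had 0.72 and 0.64, and Soat1, which esterifies cholesterol, 0.48 and 0.46. Of 3 cholesterol synthesis genes none was past 2-fold, with medians of 0.29 and -0.05.

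The receptor families of Axl, St8sia6 and Cd72 were likewise split. Of 4 TAM receptor and ligand genes, Axl was higher in both endings. The other 3 were lower in both, as were 4399 of all 5785 genes. For Pros1 the intervals overlapped in D (1.99 to 2.19 in Apoe-high and 2.07 to 2.49 in Apoe-low cells). Mertk, a receptor of the same family, had 2.69 (2.58 to 2.81) and 3.03 (2.91 to 3.15) UMIs per 10000 in Apoe-high cells, against 4.36 (4.18 to 4.54) and 4.58 (4.29 to 4.88) in Apoe-low cells, and Gas6 had 0.698 and 0.809, against 1.40 and 1.55. Of 12 sialic acid and Siglec genes, St8sia6 was 2-fold higher and Siglech 2-fold lower. St3gal6 had log2 differences of -0.99 and -0.95, Cd33 -0.66 and -0.57, and St8sia4 0.56 and 0.55. Of 10 inhibitory receptor genes, Cd72, Pdcd1 (the receptor PD-1) and Cd22 were 2-fold higher, at 4.89-fold, 2.34-fold and 2.43-fold in B and 2.63-fold, 2.00-fold and 2.93-fold in D, while Sirpa had -0.54 and -0.48 and Havcr2 -0.34 and -0.29.

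Antigen presentation genes were mostly higher, and those of class II differed between the endings. None of 13 MHC class I genes was past 2-fold, and 11 were higher in both endings, with medians of 0.33 and 0.29. Of all 5785 genes, 762 were higher in both. H2-D1 had log2 differences of 0.84 and 0.76, and H2-K1 0.62 and 0.49. None of 5 MHC class II genes was past 2-fold in both endings, but the 2 endings differed. Cd74, the MHC class II chaperone (chromosome 18, 60803848 to 60812652, plus strand), had 4.02 UMIs per 10000 in Apoe-high cells of B and 1.77 in those of D, against 0.746 and 0.984 in Apoe-low cells. H2-Ab1 (chromosome 17, 34257689 to 34269419, plus strand) had 0.942 and 0.296 in Apoe-high cells, against 0.174 and 0.238. In ending B, the 10% of cells with the most Cd74 held 72.5% of its UMIs, and for H2-Ab1 83.5%.

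The remaining lists showed smaller or mixed differences. Of 23 lysosome genes none was past 2-fold, and 15 were higher in both endings, with medians of 0.26 and 0.21. Of 16 complement and phagocytic receptor genes, C3, Itgax and Axl were 2-fold higher, with medians of 0.16 and 0.10. Of 13 genes of integrins, adhesion and matrix, 6 were 2-fold higher (Itgax, Capg, Anxa2, Anxa5, Lgals3 and Vim), with medians of 0.25 and 0.36. Of 12 cytokine and chemokine genes, Ccl3 and Ccl4 were 2-fold higher, with medians of 0.06 and -0.11. All 17 ribosomal protein genes were higher in both endings but none by 2-fold (medians 0.55 and 0.39), and 11 of 13 glycolysis and hypoxia genes were higher (0.33 and 0.37). Medians were 0.06 and -0.04 for 11 interferon genes, which the gate itself limits, -0.41 and -0.24 for 7 immediate early genes and -0.56 and -0.75 for 2 cell cycle genes, and none of these was past 2-fold.

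Against Spp1/Lpl cells of the same endings, Apoe-high cells had 8 of 5434 genes 2-fold higher (0.147%) and 53 lower (0.975%), around a median log2 difference of 0.03 in B and 0.02 in D. Over all endings, 38 of 5729 genes were higher (0.663%) and 67 lower (1.17%). Tmem119, a membrane protein of homeostatic microglia, had 5.21 (5.05 to 5.38) and 6.26 (6.09 to 6.44) UMIs per 10000 in Apoe-high cells, against 2.14 (2.01 to 2.27) and 2.46 (2.3 to 2.62) in Spp1/Lpl cells, or 2.44-fold and 2.55-fold higher, and both lay below the 9.46 and 9.85 of Apoe-low cells. Crybb1 was 2.68-fold and 2.43-fold higher than in Spp1/Lpl cells, Slc2a5 2.37-fold and 3.05-fold, and Ltc4s, leukotriene C4 synthase, 2.12-fold and 2.42-fold. The adhesion receptor Adgrg1 was 2.08-fold and 2.12-fold higher, and Clu, the lipid carrier clusterin, 2.41-fold and 2.02-fold. In the pooled sums Plpp3, Slc1a2, Sparcl1, Aldoc, Clu and Mt3, genes known from astrocytes, were among the leading higher genes. Without cells that carry 3 or more markers of another type, Clu, itself one of the astrocyte markers, had a log2 difference of -0.02. Slc1a2, an astrocyte glutamate transporter, had 22.4, 18.3 and 52.7 UMIs per 10000 in Apoe-high cells of A, C and E, but 0.686 in those of B and 0.451 in those of D, against 0.204 and 0.262 in Spp1/Lpl cells of B and D.

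Secreted factors and matrix enzymes were among the 53 lower genes. Mmp12, macrophage elastase, had 0.0254 (0.0153 to 0.0397) and 0.0109 (0.00499 to 0.0207) UMIs per 10000 in Apoe-high cells, against 1.41 (1.31 to 1.52) and 1.02 (0.923 to 1.13) in Spp1/Lpl cells, or 55.6-fold and 93.8-fold lower. Ch25h, cholesterol 25-hydroxylase, was 14.7-fold and 23.8-fold lower, the amino acid oxidase Il4i1 11.2-fold and 9.97-fold, and fibronectin, Fn1, 14.4-fold and 7.94-fold. Gpnmb, a lysosomal glycoprotein of lipid-laden phagocytes, had 0.214 (0.182 to 0.25) and 0.109 (0.0878 to 0.134) in Apoe-high cells, against 1.16 (1.07 to 1.26) and 0.956 (0.858 to 1.06). The chemokines Ccl3 (6.81-fold and 6.69-fold) and Ccl4 (4.67-fold and 6.02-fold) were lower too, as were the growth factors Igf1 (4.00-fold and 3.63-fold) and Csf1 (3.60-fold and 3.95-fold). Lgals3 was 5.09-fold and 4.77-fold lower, Fam20c, a secretory-pathway kinase, 4.09-fold and 3.90-fold, Plaur, the urokinase receptor, 3.90-fold and 3.87-fold, and Itgax 4.22-fold and 2.97-fold.

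Of all 5434 genes, 2261 were higher and 1841 lower in both endings than in Spp1/Lpl cells. By list, 9 of 16 DAM stage 2 genes were 2-fold lower in Apoe-high than in Spp1/Lpl cells. All 16 were below in both endings, and the medians were -1.35 in B and -1.40 in D. Spp1/Lpl cells were chosen by Lpl and Spp1, themselves DAM stage 2 genes, so this direction is a description and no separate support. Some members met the minimum level through Spp1/Lpl cells, as Gpnmb in D, at 0.109 in Apoe-high and 0.956 in Spp1/Lpl cells. Of 22 homeostatic genes, 4 were 2-fold higher, 17 were higher in both endings and 2 were lower in both, with medians of 0.51 and 0.43. Of 13 cytokine and chemokine genes, 4 were 2-fold lower (Ccl3, Ccl4, Ccl6 and Ccl9). Of 13 glycolysis and hypoxia genes, 12 were lower in both endings though none by 2-fold, with medians of -0.57 and -0.67. MHC class I medians were 0.07 and -0.00, and ribosomal protein medians 0.06 and 0.07. Apoe-high cells lay between the other classes for Tmem119, Crybb1, Cybb, Lgals3 and Itgax, genes picked after their values were seen. Other genes did not follow this order. In D, Fcrls had 4.35 UMIs per 10000 in Apoe-high, 6.25 in Spp1/Lpl and 7.75 in Apoe-low cells. Clu had 1.13, 0.557 and 0.523 in the same classes of D.

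Inside the gate, the levels of some genes rose with Apoe. Apoe UMIs were taken out of each total, because they reached 5.31% and 5.11% of all UMIs in the highest bin of B and D. In ending B, Lyz2 had 16.6, 20.4 and 43.0 UMIs per 10000 in the 148, 171 and 387 cells with Apoe at 100 to 150, 150 to 250 and 250 or more per 10000. In ending D it had 12.2, 15.6 and 30.1 in 178, 232 and 440 cells, and each step up in Apoe came with a higher level. Cybb ran through 0.508, 0.837 and 1.79 in B and 0.727, 0.976 and 1.70 in D, and Lgals3 through 0.670, 0.866 and 1.77 in B and 0.480, 0.828 and 1.44 in D.

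Axl and Rxrg moved less across the same bins. Axl had 1.32, 1.48 and 1.87 in B and 1.41, 1.73 and 2.12 in D, and Rxrg 0.474, 0.483 and 0.629 in B and 0.519, 0.665 and 0.688 in D. Homeostatic genes ran the other way, with Tmem119 at 7.25, 6.07 and 4.46 in B and 8.28, 7.65 and 5.30 in D, and Crybb1 at 1.02, 0.978 and 0.572 in B and 1.45, 1.26 and 0.748 in D. The markers St8sia6 and Cd72 did not rise at each step. St8sia6 had 0.887, 0.754 and 0.86 in B and 0.831, 0.995 and 0.984 in D. Cd72 had 0.629, 0.931 and 0.885 in B and 0.747, 0.785 and 0.785 in D. Cells just outside the gate, with Apoe at 80 to 100, had 15.4 and 11.7 for Lyz2, 1.08 and 1.29 for Axl and 7.63 and 9.06 for Tmem119 in B and D. Other genes differed more across the threshold. Cst7 in B had 2.56 (2.31 to 2.83) at 100 to 150 and 1.22 (0.963 to 1.53) just outside, and Cybb in D had 0.727 (0.599 to 0.875) and 0.258 (0.156 to 0.404). Across cells the Spearman correlation of Apoe with the summed homeostatic genes was -0.47 (706 cells of B) and -0.44 (850 cells of D), and with ribosomal protein genes 0.28 and 0.33. With MHC class II genes the correlation was -0.03 and -0.04. Apoe also correlated with total UMIs (0.14 and 0.18). Cells are not replicates, the endings are tied to no library, and the points share a total, so these are descriptions.

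**Figure D4:**
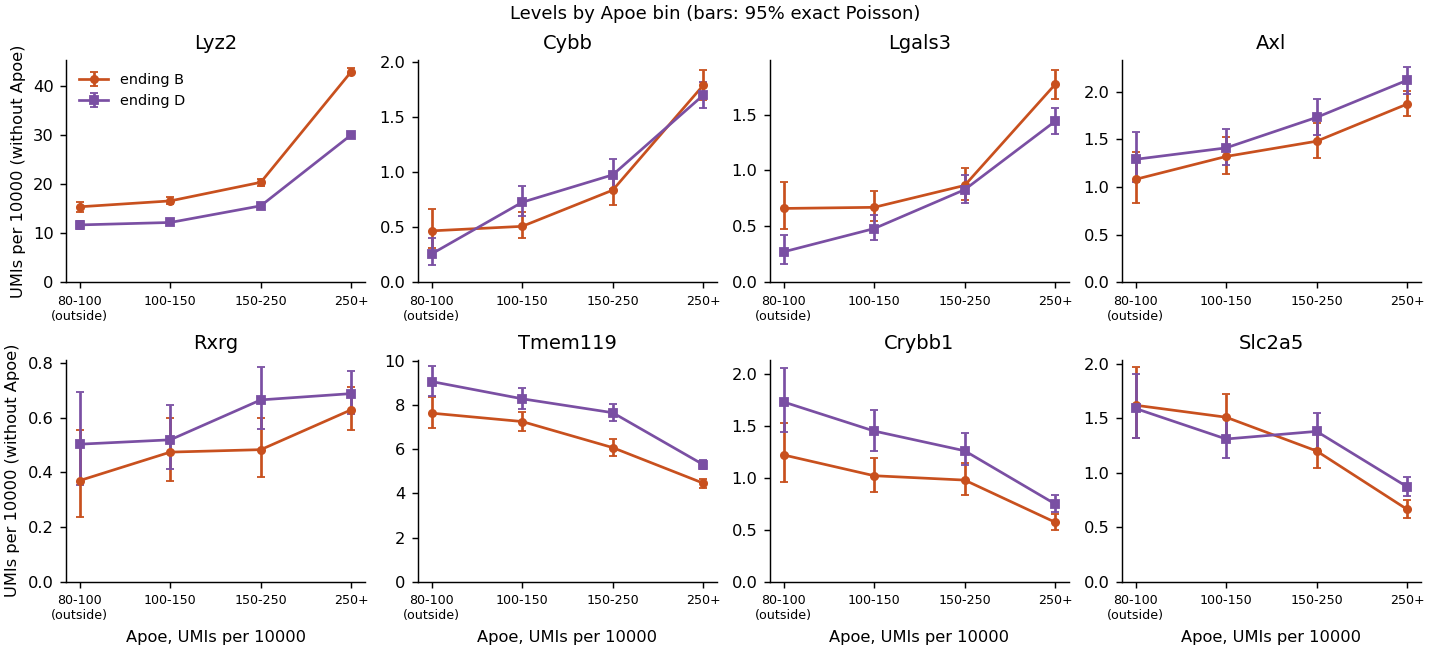
Levels (UMIs per 10000 with Apoe taken out of the total, exact Poisson 95% intervals) of 8 genes in cells binned by Apoe per 10000, in ending B (circles) and ending D (squares). The 80 to 100 bin lies just outside the gate. Lyz2, Cybb, Lgals3 and Axl are highest in the top bin, and Tmem119, Crybb1 and Slc2a5 are lowest there.

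In Smart-seq2 cells the rule, read as reads per 10000, could be applied to animals that played no part in choosing it. It found 22 of 268 microglia in Trem2ko white matter, 2 of 260 in Trem2ko grey matter, 35 of 126 in WT white matter, 3 of 145 in WT grey matter, 15 of 74 in 5xFAD cortex and 1 of 41 in WT prefrontal cortex. Before the shares, the targeted gene checks the labels. Trem2 in white matter microglia lay between 312.4 CPM (A8) and 746.6 CPM (A10) in 4 of the animals labelled Trem2ko, with 413.5 for A9 and 446.4 for A11, but reached 2074 CPM for A12 and 2737 CPM for A13, against 1859 to 4109 in the WT animals. The libraries labelled Trem2ko of A12 and A13 thus go against their label, and the shares are also given without A12, while A13 had too few microglia to enter. Trem2 is also 1 of the 3 genes of the microglia gate.

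The first question was whether these cells lie in white matter, and in WT animals the white matter share was higher in 6 of 6. It was 50% in A2 (5 of 10 microglia), 33.3% in A3, 38.5% in A4 (15 of 39), 6.67% in A5, 8.33% in A6 and 22.9% in A7, against grey matter shares of 7.69% in A2, 3.23% in A5 and 0% in A3, A4, A6 and A7. White matter averaged 26.6% ± 17.2 and grey matter 1.82% ± 3.15 (SD, n = 6 pairs), a difference of 24.8 percentage points with p = 0.0312 by an exact two-sided sign-flip permutation test, the smallest p that 6 pairs allow. Adjusted by Benjamini-Hochberg over the 5 share tests it was 0.0649. With 10 to 39 microglia per animal, a single cell moves a share by several points, and 5 pairs, left when any animal is taken out, allow no p below 0.062.

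In animals labelled Trem2ko the white matter shares were 7.41% in A8 (2 of 27), 3.12% in A10 (1 of 32), 11.9% in A11 (10 of 84), 7.29% in A12 (7 of 96) and 0% in A9 (0 of 25), and grey matter shares were 3.57% in A8, 2.27% in A10 and 0% in A9, A11 and A12. White matter averaged 5.95% ± 4.55 and grey matter 1.17% ± 1.67 (SD, n = 5 pairs), a difference of 4.78 points that was positive in 4 of 5 animals (exact sign-flip permutation p = 0.125, smallest possible 0.062, adjusted 0.156). Without A12 the difference was 4.15 points (exact permutation p = 0.25, smallest possible 0.125). Between genotypes in white matter, the Trem2ko mean of 5.95% lay 20.7 points below the WT mean of 26.6% (exact two-sided permutation p = 0.0346, smallest possible 0.00216, n = 5 and 6, adjusted 0.0649). The groups overlap, since A5 and A6 of WT lie at 6.67% and 8.33%. The p was 0.0571 by the exact permutation test without A12, with a difference of -21 points. All WT animals lie in the same table part as A8, A9 and A10, while A11, A12 and A13 make up the other. Sex differs in part, since the WT animals compared were male and A9, A10 and A11 were female. The males A8 and A12 had 7.41% and 7.29%, but Trem2 of A12 goes against its label. Age differs too, with A8, A9 and A10 at 20 months against 18 to 19 months in WT. The parts of genotype, sex and age in the difference were not tested. Inside the shared part alone the difference was -23.1 points (exact permutation p = 0.0476), and requiring 1 microglia per animal, which adds A13 with 2 of 4 cells, gave -13.3 points (p = 0.223, exact permutation).

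In prefrontal cortex the question was whether amyloid mice hold such cells. The 5xFAD shares were 33.3% in A93, 27.3% in A99, 8.33% in A100 and 0% in A91, against 3.70% in A173 and 0% in A132 of WT. They averaged 17.2% ± 15.7 in 5xFAD (SD, n = 4) and 1.85% ± 2.62 in WT (SD, n = 2), a difference of 15.4 points that did not pass the exact two-sided permutation test (p = 0.4, smallest possible 0.0667, adjusted 0.4). The groups overlap through A91.

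Genes other than those of the gate were then compared within white matter between Apoe-high and Apoe-low microglia of the same animal, in the 4 WT animals A2, A3, A4 and A7 and the 2 labelled Trem2ko, A11 and A12, with at least 3 cells of each class. Of 4879 genes, 11 (0.225%) were higher and 0 (0%) lower in edgeR's quasi-likelihood test at a Benjamini-Hochberg adjusted p of 0.05, while 119 were higher and 76 lower at an unadjusted p under 0.05. DESeq2 called 24 higher and 80 lower, and of the 11 it called 1, Lyz2, although its log2 fold change was positive for all 11. The 11 were lysosomal genes (Ctsb, Ctsd, Ctsz, Cd68 and Lyz2), MHC class I genes (H2-K1, H2-D1 and B2m), the iron-storing ferritin chain Fth1, the complement subunit C1qb and 1 unnamed gene model, CT010467.1. Summed libraries held 275046 to 41950319 reads and the common biological coefficient of variation was 1.2. Of 37 genes higher in 10x, 14 could be tested and edgeR called 1, Lyz2, although all 14 had positive log2 fold changes with a median of 1.68. Of the 31 lower in 10x, 24 could be tested, edgeR called 0 and 19 were negative, with a median of -1.24, and the median of all 4879 genes was 0.01. The filter for reads could be met through 1 class alone, as for Cst7, with medians of 138.3 scaled CPM in Apoe-high and 4.68 in Apoe-low cells. Genes near 0 in 1 class thus enter only where they are high in the other, so these directions are no separate support. DESeq2 called 3 of the 37 higher (Axl, Cst7 and Lyz2) and 2 of the 31 lower (Upk1b and Prkab1).

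Lyz2 had 1816, 13708, 4217 and 3133 scaled CPM in Apoe-high cells of A2, A3, A4 and A7 and 4425 and 2367 in those of A11 and A12, against 838.0, 372.8, 783.9, 977.4, 1039 and 883.5 in Apoe-low cells of the same animals. Every Apoe-high value lay above every Apoe-low value, and A3 stood highest. How many of the 4879 genes had no overlap between the classes was not counted, here or for the genes below. The log2 fold change was 2.21 ± 0.35 (SE), 4.63-fold, with an adjusted p of 0.00058 (edgeR quasi-likelihood). A near-identical relative, Lyz1, can share its reads, so Lyz2 is uncertain in that respect. Fth1 averaged 5829 ± 2309 in Apoe-high and 2391 ± 721.2 CPM in Apoe-low cells (SD, n = 6), higher in 6 of 6 animals, with a log2 fold change of 1.26 ± 0.20 (edgeR adjusted p 0.00058). In 10x it was 2.15-fold and 1.83-fold higher in B and D.

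Cathepsins are the main proteases of the lysosome. Ctsb, cathepsin B, averaged 8889 ± 4005 CPM in Apoe-high and 3904 ± 923.0 in Apoe-low cells (SD, n = 6, log2 fold change 1.09 ± 0.17, edgeR adjusted p 0.00058). Ctsz and Ctsd had log2 fold changes of 0.91 ± 0.19 and 0.79 ± 0.18 with edgeR adjusted p of 0.0222 and 0.0402. Cd68, a lysosomal membrane glycoprotein of phagocytes, ran from 1471 to 3861 CPM (median 2557) in Apoe-high cells, against 458.2 to 1913 (median 925.7) in Apoe-low cells (1.46 ± 0.26, edgeR adjusted p 0.00297). The 2 ranges overlap, but each animal had the higher scaled value in its Apoe-high cells for all 4 genes. Before scaling, Ctsd of A4 had 9672 CPM in Apoe-high and 10670 in Apoe-low cells. In 10x the same 4 genes were higher by less, from 1.23-fold for Cd68 to 1.58-fold for Ctsb in ending B.

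MHC class I genes present peptides to CD8 T cells. H2-K1, a heavy chain, averaged 3983 ± 1802 CPM in Apoe-high and 1191 ± 502.9 in Apoe-low cells (SD, n = 6, log2 fold change 1.73 ± 0.26, edgeR adjusted p 0.00058), higher in 6 of 6 animals. B2m, the light chain of all class I molecules, had 2273 to 4544 in Apoe-high cells and 866.3 to 1900 in Apoe-low cells, with no overlap (1.25 ± 0.25, edgeR adjusted p 0.0122). H2-D1 was higher in 5 of 6 animals, with 7024 in Apoe-high and 7041 in Apoe-low cells of A4 (1.23 ± 0.22, edgeR adjusted p 0.00328). H2-K1 and H2-D1 are near-identical members of 1 family, so their split of reads is uncertain. In 10x, H2-D1, H2-K1 and B2m were 1.79-fold, 1.54-fold and 1.49-fold higher in B and 1.69-fold, 1.40-fold and 1.36-fold in D.

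C1qb, a chain of the complement initiator C1q, had 14901 to 24034 scaled CPM in Apoe-high and 9722 to 12801 in Apoe-low cells (log2 fold change 0.77 ± 0.14, edgeR adjusted p 0.00297). The scaled ranges did not overlap. Before scaling they did, with 13373 CPM in Apoe-high cells of A7 and 14750 in Apoe-low cells of A2. In 10x C1qb differed by 1.14-fold and 1.07-fold. Markers of other cells were also summed per animal, in CPM without scaling. Astrocyte markers summed to 2.84 to 98.3 CPM in Apoe-high and 0 to 165.4 CPM in Apoe-low cells, border-associated macrophage markers to 16.4 to 263.9 and 3.81 to 967.1 CPM, and all ependymal and choroid plexus markers were at 0. Microglia markers summed to 35249 to 43052 CPM in Apoe-high and 47722 to 58914 CPM in Apoe-low cells.

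**Figure D5:**
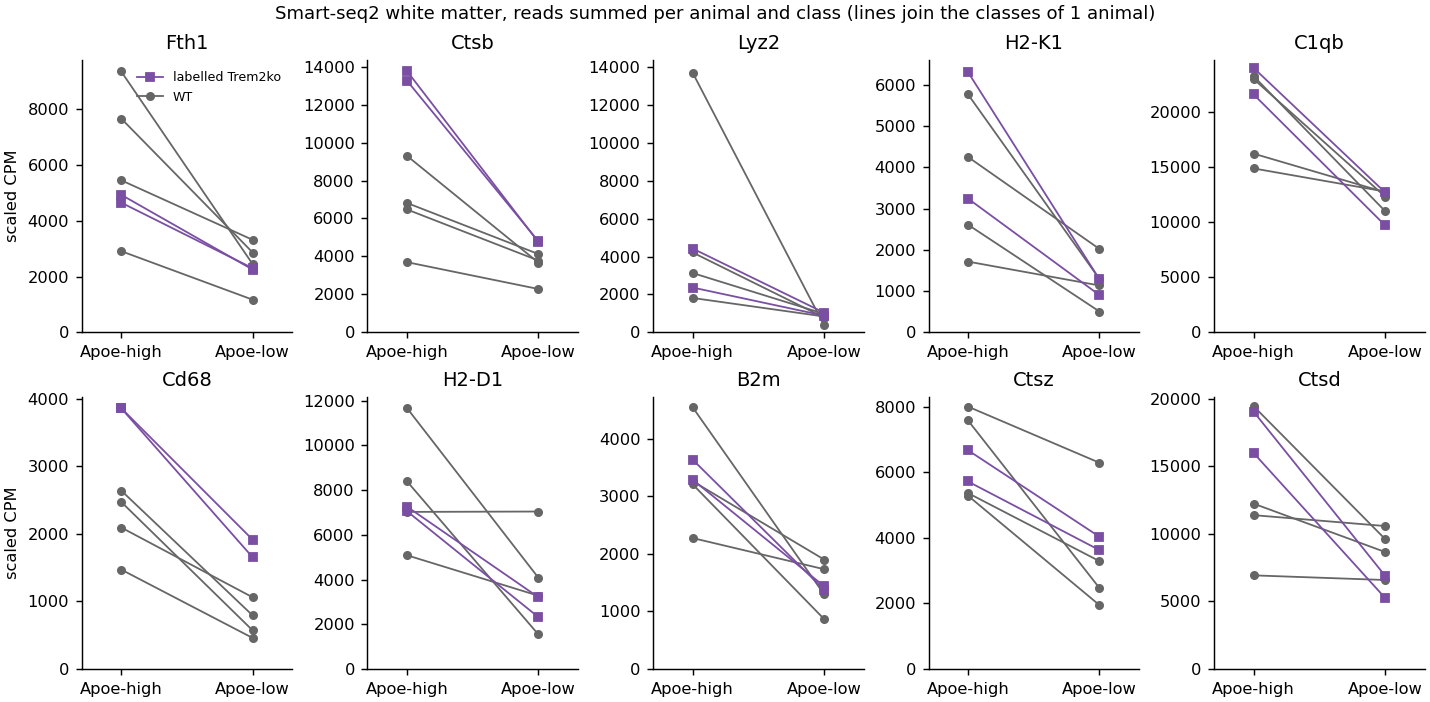
Scaled CPM of the 10 named genes called higher, in reads summed per animal over Apoe-high (left) and Apoe-low (right) white matter microglia, lines joining the classes of 1 animal, squares for the 2 animals labelled Trem2ko and circles for the 4 WT animals. All lines fall toward Apoe-low except that of A4 for H2-D1, 7024 in Apoe-high and 7041 in Apoe-low cells.

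The markers named for these cells were not called by edgeR, while DESeq2 called Axl higher (log2 fold change 5.97, DESeq2 adjusted p 0.00123). Axl had 6.38 to 299.0 CPM in Apoe-high and 0 to 46.4 in Apoe-low cells, higher in 4 of 6 animals (log2 fold change 6.24 ± 2.87, edgeR adjusted p 1). Rxrg ran from 0 to 156.8 CPM in Apoe-high and 0 to 423.1 in Apoe-low cells, and A4 had 37.7 in its Apoe-high and 423.1 in its Apoe-low cells. St8sia6 ran from 0 to 303.3 in Apoe-high and 4.67 to 62.8 in Apoe-low cells, and Cd72 from 1.13 to 246.6 and from 0 to 45.6. Each of these 3 was higher in 4 of 6 animals with an edgeR adjusted p of 1. Before scaling, Rxrg was higher in 3 of 6, with 102.7 CPM in Apoe-high and 104.8 in Apoe-low cells of A11. Cst7 was higher in 6 of 6 animals, at 54.8 to 764.7 CPM against 0 to 151.1 (4.03 ± 1.39), without passing in edgeR (adjusted p 0.718), whereas DESeq2 called it higher (3.92, adjusted p 0.00123).

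Homeostatic genes were lower in most animals, and none was called by edgeR. Upk1b had 3.51 to 54.9 CPM in Apoe-high and 104.7 to 1001 in Apoe-low cells, lower in 6 of 6 animals with no overlap (log2 fold change -3.90 ± 1.14, edgeR adjusted p 0.328), and DESeq2 called it lower (-4.02, DESeq2 adjusted p 0.00134). Fcrls, an Fc receptor-like gene, averaged 1236 ± 568.1 and 2531 ± 1026 CPM (SD, n = 6), lower in 6 of 6 (-1.09 ± 0.27, edgeR adjusted p 0.0889). Slc2a5 averaged 969.6 ± 665.1 and 2057 ± 560.6 CPM, with the higher value in the Apoe-high cells of A11 (-1.34 ± 0.37, edgeR adjusted p 0.242). Crybb1 averaged 249.0 ± 196.1 and 618.8 ± 198.0, lower in 6 of 6 (-1.68 ± 0.63, edgeR adjusted p 0.862). Tmem119 averaged 6563 ± 1942 in Apoe-high and 7071 ± 1676 in Apoe-low cells (-0.13 ± 0.19, edgeR adjusted p 1).

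Over the lists, edgeR called 6 of 9 DAM stage 1 genes higher with a median log2 fold change of 1.09, 4 of 24 lysosome genes (0.47), 3 of 13 MHC class I genes (1.25), 1 of 10 DAM stage 2 genes (1.17, Cd68) and 1 of 15 complement and phagocytic receptor genes (0.48), where 0.225% of all genes were called. None of 23 homeostatic genes was called by edgeR, and 18 were negative (median -0.35). None of 17 ribosomal protein genes was called, and 16 were positive (0.88). DESeq2 called 1 DAM stage 1 gene higher (Lyz2), 2 of DAM stage 2 (Axl and Cst7), 1 of MHC class I (H2-Q7) and 0 of the lysosome list, and 1 homeostatic gene lower (Upk1b). The count of genes edgeR called was 0 in the 4 WT animals alone and 1, Ctsd, in the 2 animals labelled Trem2ko alone. Without A12 it was 4 (Cd68, Fth1, H2-K1 and Lyz2), and without A11 it was 7 higher and 1 lower, Fcrls. Leaving out cells with 3 or more markers of 1 other cell type left 3 animals and 1 call, Napa, which was chosen for mention after its value was seen.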

How the data were processed

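The aged 10x table holds raw UMI counts per gene and barcode as deposited, from 3-prime libraries made after myelin removal with no sort named, per the labels' protocols. For Smart-seq2, aged and 5xFAD, the deposited values are raw counts of reads for every gene in every cell. The submitters' processing notes name mm10, Cell Ranger 4, Trim Galore, FastQC and bcl2fastq, and which aligner and counter served Smart-seq2 is not given in the sources used here. Not analysed were the ApoeKO 10x table and the cells of postnatal day 14.

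The members, gene lists and tests were chosen with earlier results of these data known. In 10x, UMIs were summed per class and given per 10000 with 95% exact Poisson intervals (binomial for shares). Genes at a mean of 0.2 or more per 10000 were compared by a 2-fold limit, and for the pooled sums the direction had to hold in every ending with at least 20 cells of both classes. No doublet caller was run. Intervals cover counting error only, since amplified molecules are not independent. Gene positions come from the GENCODE annotation of GRCm38.

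In Smart-seq2, 2 repeated wells of A5 (correlation at least 0.973) were dropped, which left 845 aged cells. Joining 55 renamed symbols and leaving out 4716 genes without reads in 1 part of the table kept 13310 genes. Shares needed at least 5 microglia per animal and tissue, and sums at least 3 cells per class. edgeR 4.0.16 quasi-likelihood tests (TMM, filterByExpr, animal as a block) were run in R 4.3.3, with Benjamini-Hochberg adjustment over all genes, and the scripts were tested on simulated data. The SE is the log2 fold change over the square root of F. CPM of single genes compared between the classes are scaled by TMM unless said otherwise, while Trem2 levels of the animals and marker sums are not. Shares were tested by exact permutation in scipy 1.17.1. The pairing comes from the same animal, and as a check the deviations of its 2 classes correlated by -0.00539 to 0.0961. P-values measure the spread between these animals. Named genes were the 5 markers, the 12 genes with the largest and the 12 with the smallest 10x fold over Apoe-low cells (mean of 0.5 or more per 10000), 10 in each direction against Spp1/Lpl cells, list members of largest fold, and the gate genes, of which some are not reported here. Genes named inside endings B and D beyond these, and those of the Smart-seq2 fit, were chosen after their values were seen. Alternatives were DESeq2 1.42.0, other scaling, filters, gates and left-out animals.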

Additional observations from a re-analysis of the deposited data

Results flagged for a closer look

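Lyz2 in Apoe-high white matter cells stood at 13708 scaled CPM in A3, far from the other 5 animals, which ran from 1816 to 4425. The rule that flagged this gap marks about 1 of 20 groups by chance, and 27 groups were looked at. Without A3, Lyz2 was still called higher by edgeR, but it was not called without A11, in either genotype alone, with a minimum of 20 CPM, with at least 2 cells per class or without cells with markers of another type.

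The white minus grey matter share of Apoe-high cells differed between genotypes by -20 percentage points, with 4.78 points in animals labelled Trem2ko (n = 5) and 24.8 points in WT animals (n = 6). The exact two-sided permutation p was 0.039, and 0.0649 adjusted by Benjamini-Hochberg over 5 tests. A12, labelled Trem2ko, has Trem2 at the level of WT animals, and without it the difference was -20.6 points (exact permutation p = 0.0667, n = 4 and 6). Sex and age differ in part between the genotypes, and their parts in the difference were not tested. Inside the table part that holds both genotypes the white matter share differed by -23.1 points.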

How the results depend on the processing

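In 10x the share of Apoe-high cells among microglia, 15.2%, was 16.9% with Apoe at 80 or more, 11.8% at 150 or more, 10.8% with Lpl and Spp1 under 2, 17.1% under 10, 18.7% without cells with 3 or more markers of another type, 15.9% without cells rich in astrocyte markers and 35.3% in endings B and D alone (the last 2 chosen after seeing the data), and 9.09 to 19.8% with 1 ending left out. The count of genes past 2-fold in the pooled sums was 813 with no minimum level, 43 at a level of 1 or more, 68 inside B and D and 161 to 249 with 1 ending left out. The Lyz2 ratio of the highest to the lowest Apoe bin, 2.59 pooled, was 2.59 in B and 2.47 in D. Against Spp1/Lpl cells, the log2 difference of Clu, 2.18 pooled, reversed to -0.02 without cells with 3 or more markers of another type.

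With the animal as a replicate block 11 genes were higher in Smart-seq2 white matter. Without the block there were 2, with DESeq2-type size factors 6, with DESeq2 24 (and 80 lower), with at least 2 cells 3, with Apoe at 200 or more 3, in WT alone 0, in animals labelled Trem2ko alone 1, without cells with markers of another type 1, and with 1 animal left out 4 to 12 (0 to 1 lower). Unpaired, the share tests gave exact permutation p of 0.00433 in WT and 0.0873 in Trem2ko.

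The WT difference in share of 24.8 points was 20.1 (p = 0.062, exact) with Lpl and Spp1 under 2 and 21.3 to 29.1 with 1 animal left out. The difference between genotypes of -20.7 points was -13.3 with 1 or more microglia per animal, -16.2 (p = 0.0736, exact) with Lpl and Spp1 under 2 and -24.7 to -16 with 1 animal left out. The tissue difference in Trem2ko ran from 2.99 to 5.97 and that of 5xFAD over WT cortex from 10 to 21.1 with 1 animal left out. The cause of these shifts was not tested. Shares rest on few cells per animal.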
